A study of Mus musculus with 2 samples.

Results

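Molecular chaperones of the heat shock protein families and their DnaJ co-chaperones were described in total RNA of the mouse adrenal gland at postnatal day 4. The members were the genes whose symbol has the form of an HSP90, HSP70 and HSP110, HSP60, HSP10, small HSP, DNAJA, DNAJB or DNAJC gene and that have at least 1 transcript annotated as protein_coding. The rule gave 72 members among 55536 annotated genes, of which 22028 are protein-coding, and used no measured value. A further 14 symbols of this form were processed pseudogenes without such a transcript and were not members.

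The series held 2 libraries of a single group: adrenal glands of male B6CASTF1/J mice, an F1 hybrid strain, at 4 days of age, with no treatment named in the labels. The labels call them biological replicates 1 and 2. Their characteristics number the males differently, but a description and a donor label are common to both; they were taken as different animals because the biosamples differ. No second condition exists, so the only comparison is replicate 1 over replicate 2, which sets 2 libraries against each other and has no replicate check.

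Gene counts totalled 32231301 in replicate 1 and 30292851 in replicate 2. The 4 adrenal cortex markers (Star, Cyp11a1, Nr5a1, Mc2r) summed to 2050 TPM in replicate 1 against 1861 in replicate 2, and the 4 chromaffin markers (Th, Dbh, Pnmt, Chga) to 1544 and 1385 TPM in the same order, so the labelled tissue showed its defining genes in both. TPM is a level per transcript length, scaled to a fixed total in each library. Protein-coding genes held 37.1% of the TPM of all genes in replicate 1 and 39.8% in replicate 2. A pair of TPM values and a ratio of scaled counts can therefore point different ways. The libraries differed in markers of other tissues. The 6 liver markers (Alb, Afp, Apoa1, Ahsg, Ttr, Serpina1a) summed to 161 TPM in replicate 1 against 4737 in replicate 2, and the 6 skeletal muscle markers (Acta1, Mylpf, Tnnt3, Myh3, Ckm, Myl1) to 562 TPM in replicate 1 against 1036 in replicate 2. The 4 erythroid markers (Hba-a1, Hbb-bs, Alas2, Slc4a1) summed to 1699 TPM in replicate 1 against 3124 in replicate 2, all 4 over 1.5-fold higher in replicate 2. The 4 adipocyte markers (Adipoq, Plin1, Ucp1, Fabp4) summed to 628 TPM in replicate 1 against 778 in replicate 2, with Ucp1 1.57-fold higher in replicate 2, and the 4 endothelial markers (Pecam1, Cdh5, Plvap, Egfl7) to 207 TPM in replicate 1 against 241 in replicate 2. None of these markers was at 0 in either library. In whole-gland RNA, fewer cells of a type and less RNA per cell cannot be told apart.

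HSP70 proteins bind exposed hydrophobic stretches of unfolded clients in cycles of ATP hydrolysis. DnaJ proteins deliver clients and stimulate that hydrolysis, nucleotide exchange factors release ADP, and HSP90 acts later on clients such as steroid hormone receptors and kinases. Small HSPs hold unfolded proteins without using ATP, and HSP60 with HSP10 forms the folding chamber of the mitochondrial matrix. Under proteotoxic stress HSF1 binds heat shock elements in the promoters of the inducible members, whereas endoplasmic reticulum (ER) stress raises the ER members through ER stress elements. The steroid-producing cortex is rich in mitochondria and smooth ER, and the chromaffin cells of the medulla secrete catecholamines and peptides.

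The promoters of 6 members are shown because they hold the best-known response elements of these genes and because Hspa1b, Hspa1a and Hsph1 were the members over 1.5-fold higher in replicate 1. Each sequence runs 5′ to 3′ over the 250 bases before the start of transcription, from RefSeq on GRCm38.p6, in the strand of the gene. Capitals mark heat shock elements (GAANNTTC or TTCNNGAA) in Hspa1b, Hspa1a, Hsph1 and Hspe1, and ER stress elements (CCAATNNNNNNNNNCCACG, either strand) in Hspa5 and Hsp90b1.
Hspa1b (chr17:34959239-34959488, minus strand): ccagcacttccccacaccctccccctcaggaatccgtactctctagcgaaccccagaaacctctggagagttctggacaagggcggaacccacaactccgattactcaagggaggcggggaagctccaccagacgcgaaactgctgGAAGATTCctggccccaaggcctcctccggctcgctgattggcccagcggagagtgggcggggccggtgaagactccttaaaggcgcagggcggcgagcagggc
Hspa1a (chr17:34972157-34972406, minus strand): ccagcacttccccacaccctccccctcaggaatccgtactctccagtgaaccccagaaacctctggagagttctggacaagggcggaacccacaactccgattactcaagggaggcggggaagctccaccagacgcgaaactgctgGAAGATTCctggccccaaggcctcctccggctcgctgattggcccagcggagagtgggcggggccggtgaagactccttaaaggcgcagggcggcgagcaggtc
Hsph1 (chr5:149636337-149636586, minus strand): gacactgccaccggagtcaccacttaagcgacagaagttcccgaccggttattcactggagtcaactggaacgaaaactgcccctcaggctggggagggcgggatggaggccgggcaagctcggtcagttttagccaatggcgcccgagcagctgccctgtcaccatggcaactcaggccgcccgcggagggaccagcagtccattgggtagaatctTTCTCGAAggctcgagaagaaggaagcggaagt
Hspe1 (chr1:55087898-55088147, plus strand): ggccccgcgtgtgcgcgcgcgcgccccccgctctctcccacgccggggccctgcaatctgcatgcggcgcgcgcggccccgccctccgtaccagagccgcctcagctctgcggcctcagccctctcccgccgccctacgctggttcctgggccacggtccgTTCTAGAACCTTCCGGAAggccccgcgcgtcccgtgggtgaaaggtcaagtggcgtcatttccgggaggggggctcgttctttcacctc
Hspa5 (chr2:34771840-34772089, plus strand): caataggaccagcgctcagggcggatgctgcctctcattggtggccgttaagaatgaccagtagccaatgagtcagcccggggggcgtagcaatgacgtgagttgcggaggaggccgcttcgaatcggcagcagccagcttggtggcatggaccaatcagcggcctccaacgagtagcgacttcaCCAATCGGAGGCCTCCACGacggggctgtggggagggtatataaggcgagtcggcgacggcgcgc
Hsp90b1 (chr10:86705445-86705694, minus strand): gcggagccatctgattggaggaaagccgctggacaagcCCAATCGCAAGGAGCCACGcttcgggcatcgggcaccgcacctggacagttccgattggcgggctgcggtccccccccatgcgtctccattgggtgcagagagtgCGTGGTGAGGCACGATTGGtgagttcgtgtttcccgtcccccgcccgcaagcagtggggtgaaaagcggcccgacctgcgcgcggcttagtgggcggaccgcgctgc

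The printed promoters of Hspa1b and Hspa1a, neighbours on chromosome 17 whose starts lie 12918 bases apart, differed at 3 of 250 bases (98.8% identity), and the element lay at the same place in both, beginning 104 bases before the start. In Hsph1 it began 33 bases before the start, and in Hspe1 3 overlapping elements began 89, 84 and 79 bases before it. The ER stress element began 65 bases before the start of Hspa5, and a pair in Hsp90b1 began 212 and 107 bases before its start. For Hsph1, Hspe1, Hspa5 and Hsp90b1 the gene annotation of the deposited tables begins 40, 16, 120 and 65 bases further upstream than the RefSeq start used here. By that annotation the marked elements of Hsph1 and Hspa5 lie inside the gene, and those of Hspe1 and Hsp90b1 before it. The sequences are those of the reference genome, and the alleles of the hybrid strain were not examined.

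Of the 72 members, 58 matched a RefSeq promoter by symbol. A heat shock element of 2 units, on either strand, was found in 10 of the 58 (17.2%), against 13.0% of all 27025 promoters of the same length. The 10 were Dnaja1, Dnajb6, Dnajc10, Dnajc27, Hspa1a, Hspa1b, Hspb1, Hspb3, Hspe1 and Hsph1. Of the 8 members listed as HSF1-inducible, 6 had a promoter and 5 of these held the element (Dnaja1, Hspa1a, Hspa1b, Hspb1, Hsph1). Hspa8 and Hsp90aa1 were not matched to a promoter. These counts take the near-identical promoters of Hspa1a and Hspa1b as separate. Elements of 3 alternating units, which overlap the 2-unit form, were found in 2 of 58 members (3.45%; Dnajb6 and Hspe1) against 0.414% of all promoters. The ER stress element was found in 3 of 58 members (5.17%; Hspa5, Hsp90b1 and Dnajc3, all ER chaperones), against 0.118% of all promoters. A match is a description of letters in this window.

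Chaperone messages were abundant in both glands. A mean of 1 TPM or more was reached by 64 of the 72 members, and 9 members were at 100 TPM or more, 34 between 10 and 100, 21 between 1 and 10, 3 between 0.1 and 1, and 5 below 0.1. The median member stood at 13.4 TPM, with 14.1 in replicate 1 and 13.2 in replicate 2, against 3.35 TPM for all protein-coding genes. The gap was narrower among genes at 1 TPM or more, where the medians were 15.0 TPM for members and 11.5 TPM for protein-coding genes. Members held 0.922% of protein-coding TPM in replicate 1 and 0.818% in replicate 2, and the 10 highest members held 71.9% of member TPM in replicate 1 and 70.8% in replicate 2.

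**Figure D1:**
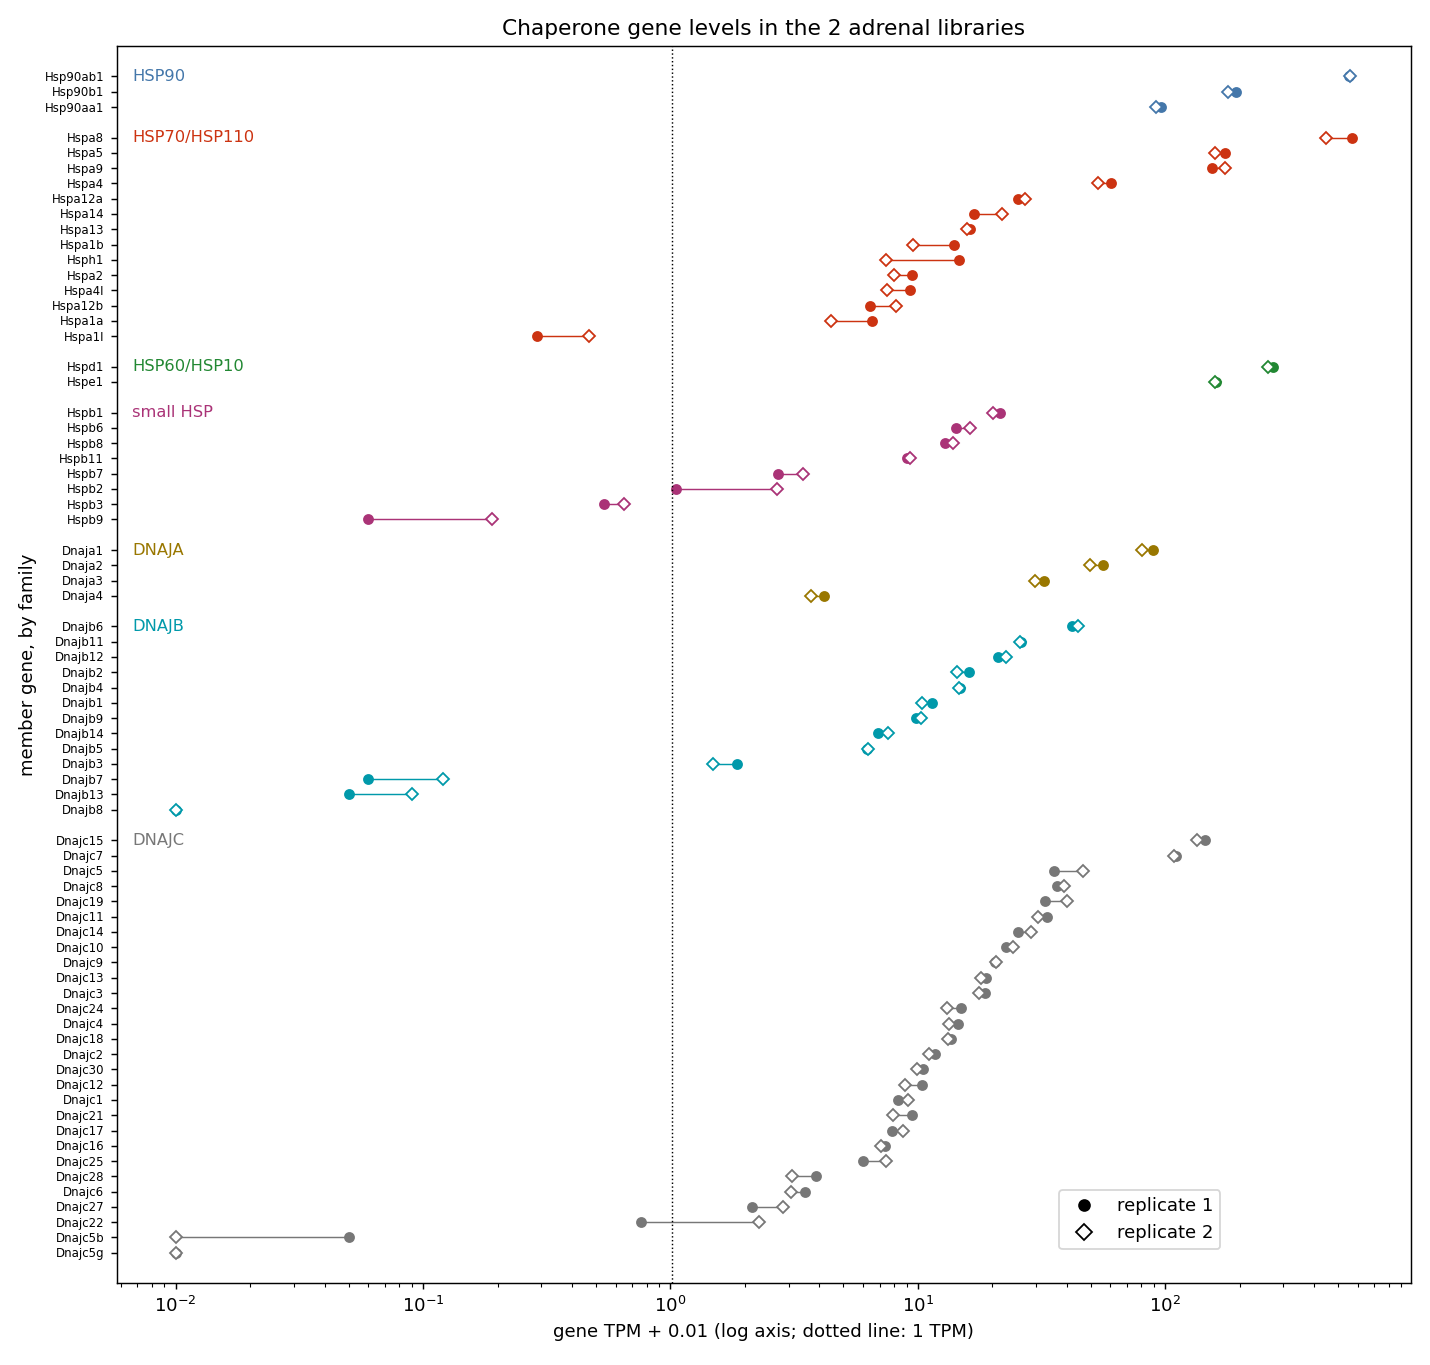
Gene TPM + 0.01 on a log axis for the 72 members in replicate 1 (filled circles) and replicate 2 (open diamonds), by family, with a dotted line at 1 TPM. Hsp90ab1 and Hspa8 stand highest, with Hspa8 at 446 TPM in replicate 2 the lowest of their values, and 6 of the 8 members of the germ cell list lie left of the 1 TPM line.

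The HSP90 family took 24.98% of member TPM in replicate 1 and 25.8% in replicate 2. Hsp90ab1, the constitutive cytosolic form (chr17:45567775-45573271, minus strand), had 554 TPM in replicate 1 against 558 in replicate 2 and ranked 47 among protein-coding genes by mean TPM. Hsp90aa1, the inducible cytosolic form, had 96.0 TPM in replicate 1 against 91.3 in replicate 2, so the level of Hsp90aa1 per that of Hsp90ab1 was 0.173 in replicate 1 and 0.164 in replicate 2. Hsp90b1, the ER form also called GRP94, had 193 TPM in replicate 1 against 179 in replicate 2. The 3 HSP90 genes kept their order in both libraries, with gaps between neighbours wider than the distance between libraries.

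Among the HSP70 and HSP110 genes, which held 31.8% of member TPM in replicate 1 and 29.4% in replicate 2, Hspa8 stood apart. Hspa8, the constitutive cytosolic HSP70 (chr9:40800984-40810087, plus strand), had 567 TPM in replicate 1 against 446 in replicate 2. Hspa8 was thus level with Hsp90ab1 in replicate 1, at 1.02 times its TPM, and below it in replicate 2, at 0.800 times, so the order of these 2 genes was not fixed. Hspa5, the ER HSP70 also called BiP, had 174 TPM in replicate 1 against 159 in replicate 2. Hspa9, the mitochondrial matrix HSP70, had 154 TPM in replicate 1 against 174 in replicate 2, and its range overlapped that of Hspa5.

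The HSP110 genes, nucleotide exchange factors related to HSP70, were led by Hspa4 with 60.5 TPM in replicate 1 against 53.2 in replicate 2. Hspa4l had 9.28 TPM in replicate 1 against 7.52 in replicate 2. The stress-inducible pair was lower than Hspa4: Hspa1b had 14.0 TPM in replicate 1 against 9.53 in replicate 2. Its near-identical neighbour Hspa1a had 6.49 TPM in replicate 1 against 4.46 in replicate 2. Hspa8 therefore exceeded Hspa1b 40.6 times in replicate 1 and 46.8 times in replicate 2.

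The atypical HSP70 gene Hspa12a had 25.3 TPM in replicate 1 against 27.1 in replicate 2, and its relative Hspa12b, known from endothelial cells, had 6.38 TPM in replicate 1 against 8.15 in replicate 2. Hspa14, which acts at the ribosome, had 16.9 TPM in replicate 1 against 21.9 in replicate 2. Hspa13, an ER-associated HSP70, had 16.3 TPM in replicate 1 against 15.7 in replicate 2. Hspa2, known from spermatocytes, was detected at 9.46 TPM in replicate 1 against 8.03 in replicate 2. The germ cell and gonad markers Ddx4, Dazl, Amh and Insl3 summed to 3.48 TPM in replicate 1 against 3.65 in replicate 2. Most of this was Insl3, with 2.71 TPM in replicate 1 against 3.00 in replicate 2. Ddx4 had 0.41 TPM in replicate 1 against 0.28 in replicate 2, and Dazl 0.09 TPM in both.

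The 2 chaperonin subunits were among the most abundant members. Hspd1, which encodes HSP60, had 274 TPM in replicate 1 against 260 in replicate 2. Hspe1, which encodes its lid HSP10, had 160 TPM in replicate 1 against 159 in replicate 2. These genes lie head to head on chromosome 1 and their annotations overlap by 112 bases on opposite strands. The Hspd1 level was 1.71 times that of Hspe1 in replicate 1 and 1.64 times in replicate 2.

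Small HSPs were the lowest family, at 1.83% of member TPM in replicate 1 and 2.07% in replicate 2. Hspb1, which encodes HSP25 in the mouse, had 21.4 TPM in replicate 1 against 20.02 in replicate 2. Hspb6, a partner abundant in muscle, had 14.3 TPM in replicate 1 against 16.2 in replicate 2, and Hspb8, which works with Bag3 in autophagy, had 12.9 TPM in replicate 1 against 13.9 in replicate 2. The ranges of Hspb6 and Hspb8 lay close together and the order of these 2 genes was the same in both libraries. Hspb11, known as the ciliary transport subunit IFT25 and a small HSP by symbol, had 9.03 TPM in replicate 1 against 9.32 in replicate 2. The heart and muscle member Hspb7 had 2.70 TPM in replicate 1 against 3.41 in replicate 2, and the muscle member Hspb3 had 0.53 TPM in replicate 1 against 0.64 in replicate 2.

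DnaJ co-chaperones numbered 45 and most were moderately expressed. All 4 DNAJA genes were detected. Dnaja1, the main cytosolic type with Hspa8, had 89.1 TPM in replicate 1 against 80.4 in replicate 2. Dnaja2 had 55.9 TPM in replicate 1 against 49.8 in replicate 2, and Dnaja3, the mitochondrial type, had 32.3 TPM in replicate 1 against 29.6 in replicate 2. Dnaja4 was much lower, with 4.17 TPM in replicate 1 against 3.70 in replicate 2. The order Dnaja1, Dnaja2, Dnaja3, Dnaja4 was the same in both libraries, with no overlap between neighbours.

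Of the 13 DNAJB genes, 10 were detected. Dnajb6, a suppressor of polyglutamine aggregation, led with 42.0 TPM in replicate 1 against 44.3 in replicate 2. Dnajb11, an ER partner of BiP, had 26.2 TPM in replicate 1 against 26.0 in replicate 2, and Dnajb12, anchored in the ER membrane, had 21.1 TPM in replicate 1 against 22.6 in replicate 2. Next came Dnajb2, at 16.1 TPM in replicate 1 against 14.3 in replicate 2, and Dnajb4, at 14.7 TPM in both libraries, whose ranges overlapped. Dnajb1, the inducible HSP40, had 11.4 TPM in replicate 1 against 10.4 in replicate 2.

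The DNAJC genes, the most varied class, held 18.5% of member TPM in replicate 1 and 19.6% in replicate 2. Dnajc15, a subunit of the import motor of the mitochondrial inner membrane, had 145 TPM in replicate 1 against 135 in replicate 2. Dnajc7, a co-chaperone that binds HSP70 and HSP90, had 111 TPM in replicate 1 against 109 in replicate 2. Dnajc5, the cysteine string protein of secretory vesicles, had 35.6 TPM in replicate 1 against 46.4 in replicate 2. The spliceosome-associated Dnajc8 had 36.5 TPM in replicate 1 against 39.1 in replicate 2, a range that lay inside that of Dnajc5.

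The mitochondrial member Dnajc19 had 32.5 TPM in replicate 1 against 40.0 in replicate 2. Dnajc11, which associates with the complex that organises mitochondrial cristae, had 33.2 TPM in replicate 1 against 30.5 in replicate 2. Dnajc14, of the ER membrane, had 25.5 TPM in replicate 1 against 28.6 in replicate 2, and Dnajc10, an ER disulfide reductase, had 22.8 TPM in replicate 1 against 24.3 in replicate 2. Dnajc12, a co-chaperone of aromatic amino acid hydroxylases, among them the tyrosine hydroxylase of chromaffin cells, had 10.4 TPM in replicate 1 against 8.82 in replicate 2. Its range overlapped that of Dnajc30, a mitochondrial DnaJ protein, with 10.52 TPM in replicate 1 against 9.90 in replicate 2.

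By compartment, the 8 mitochondrial members had a median of 88.1 TPM, the 8 constitutive cytosolic members 54.8 TPM, the 10 ER members 19.99 TPM and the 8 HSF1-inducible members 16.2 TPM. The mitochondrial median fell in a wide gap between Dnajc19, at a mean of 36.3 TPM, and Dnajc15, at 139.9 TPM. The Dnajc15 level rested mostly on transcripts without the protein_coding label, so the top place of this list is not firm. Mitochondrial members together held 24.9% of member TPM in replicate 1 and 26.1% in replicate 2. Within the ER list, Hsp90b1 had 1.11 times the TPM of Hspa5 in replicate 1 and 1.12 times in replicate 2. The others ranged down to Dnajb14, an ER membrane DnaJ protein, with 6.89 TPM in replicate 1 against 7.58 in replicate 2. In between, Dnajc3, an inhibitor of the kinase PERK, had 18.6 TPM in replicate 1 against 17.6 in replicate 2. Dnajb9, the ER DnaJ protein ERdj4, had 9.78 TPM in replicate 1 against 10.2 in replicate 2, and Dnajc1 had 8.29 TPM in replicate 1 against 9.12 in replicate 2.

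Most members known mainly from germ cells lay at the bottom, although Hspa2 ranked 46 of the 72 members by mean TPM. Of the 8 in that list, only Hspa2 and Dnajb3 reached 1 TPM, and Dnajb3 had 1.84 TPM in replicate 1 against 1.48 in replicate 2. Dnajb3 lies within the Ugt1a6a and Ugt1a6b genes on the opposite strand, and the labels and headers do not say if reads were assigned by strand. Hspb9 had 1 count in replicate 1 and 3 in replicate 2. In the same order, Dnajb13 had 1 and 3 counts, Dnajc5b had 1 and 0, and Dnajb7, which is not in that list, had 2 and 4. Dnajb8 and Dnajc5g had 0 counts in both libraries, which allows up to 0.0931 CPM (counts scaled to library size) in replicate 1 and 0.0990 CPM in replicate 2, taking 3 counts as the floor. Such intervals and floors cover counting error only.

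Between the libraries the chaperone genes were mostly close, with a slight tilt to replicate 1. After a filter on low counts, 66 members had a ratio of scaled counts, and the median log2 ratio of replicate 1 over replicate 2 was 0.10, against 0.00 over all 18160 filtered genes. Of the 66, 50 (75.8%) lay above 0, against 49.9% of all filtered genes. That number was 44 when libraries were scaled by total counts or by ERCC spike-ins, synthetic RNAs added to each sample. By TPM, of which protein-coding genes held a smaller share in replicate 1, some of the 50 were higher in replicate 2 instead. Among them were Hsp90ab1, with 554 TPM in replicate 1 against 558 in replicate 2, and Dnajb6, with 42.0 against 44.3 TPM. The interquartile range of the members ran from 0.00 to 0.22 on the log2 scale. The 4 cortex markers had log2 ratios between 0.15 and 0.25 and the 4 chromaffin markers between 0.13 and 0.30, so genes of the gland itself were tilted the same way, and their part in the tilt of the members was not tested.

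A 1.5-fold difference in either direction was reached by 6 of the 66 members (9.09%), against 11.6% of all filtered genes and 9.7% of filtered protein-coding genes, a share near the background. Of these, 3 were higher in replicate 1 (4.55%, against 2.93% of all filtered genes) and 3 were higher in replicate 2 (4.55%, against 8.69%). The 3 higher in replicate 1 count the near-identical Hspa1a and Hspa1b as separate. Of 14975 filtered protein-coding genes, 350 were higher in replicate 1 and 1103 in replicate 2. At 1 TPM or more, 7.81% of 64 members passed in either direction, against 6.49% of 13243 filtered protein-coding genes. A 2-fold difference was reached by 3 members (4.55%), against 4.32% of all filtered genes. 

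**Figure D2:**
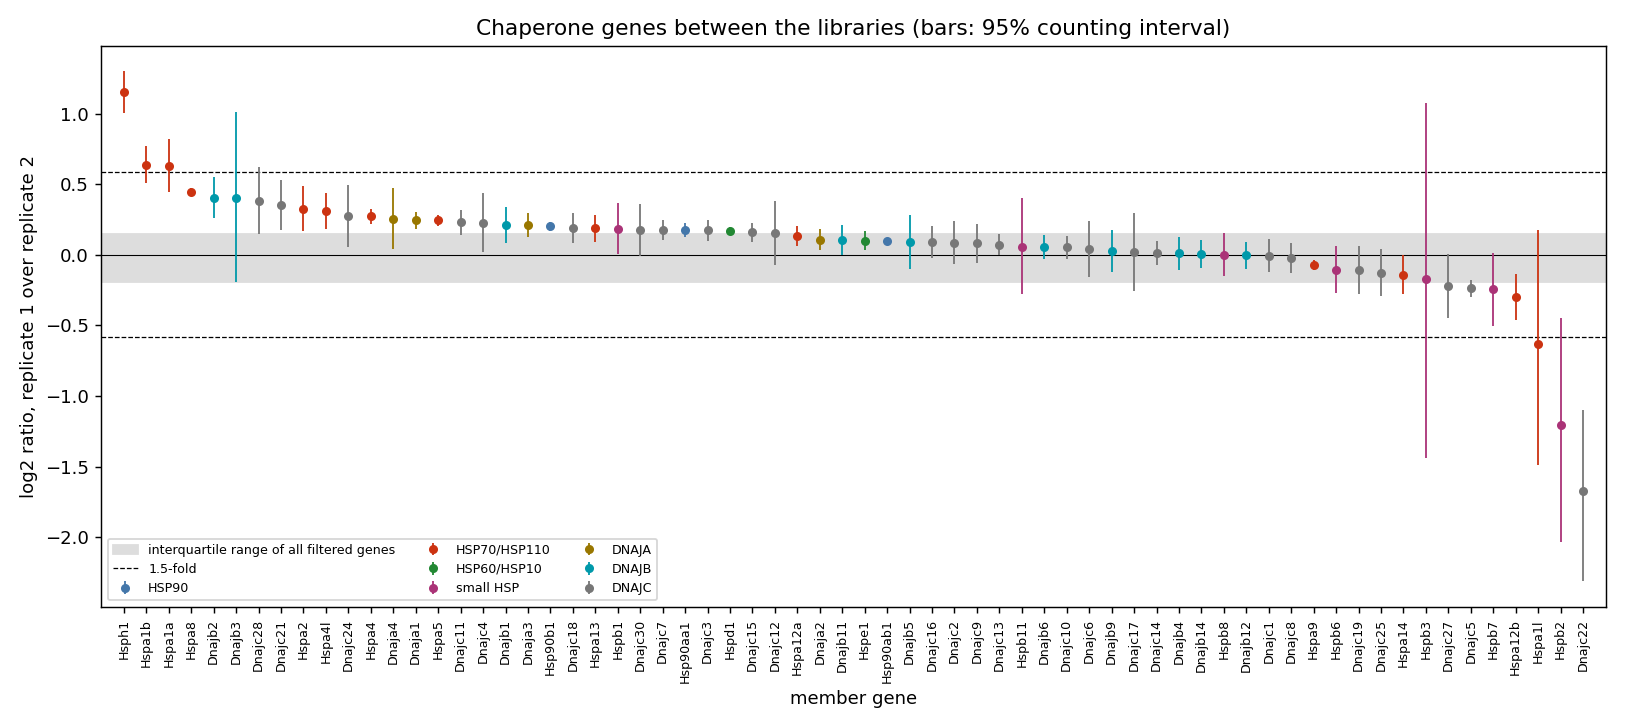
Log2 ratio of scaled counts, replicate 1 over replicate 2, for the 66 filtered members in order of ratio, coloured by family, with 95% counting intervals, dashed lines at 1.5-fold and a grey band for the interquartile range of all filtered genes. Hsph1, Hspa1b and Hspa1a lie above the upper line, and Hspa1l, Hspb2 and Dnajc22 below the lower one.

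The 3 members higher in replicate 1 were stress-inducible partners of the HSP70 machine. Hsph1, the inducible HSP110 (chr5:149614287-149636376, minus strand), had 14.7 TPM in replicate 1 against 7.42 in replicate 2, from 1264 and 546 counts in that order. Its ratio was 2.22-fold (95% interval of counting error 2.01 to 2.46). Hspa1b (chr17:34956436-34959238, minus strand) was 1.56-fold higher in replicate 1 (1.42 to 1.71), from 1250 counts in replicate 1 and 770 in replicate 2. Hspa1a (chr17:34969190-34972156, minus strand) was 1.55-fold higher in replicate 1 (1.36 to 1.77), from 617 counts in replicate 1 and 382 in replicate 2.

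Hspa1a and Hspa1b cannot be read as separate genes with confidence. Of the 50-base stretches of the main Hspa1b transcript, 62.3% also occur in Hspa1a transcripts. Their sum, 20.5 TPM in replicate 1 against 14.0 in replicate 2, was 1.56-fold higher in replicate 1 (1.44 to 1.68), and the Hspa1b level was 2.15 times that of Hspa1a in replicate 1 and 2.14 times in replicate 2. Hsph1 was set against its constitutive relative in each library: the Hsph1 level was 0.243 times that of Hspa4 in replicate 1 and 0.139 times in replicate 2. In the alignment-free counts Hspa1a did not pass 1.5-fold, whereas Hsph1 and Hspa1b did.

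The HSF1-inducible list holds Hsph1, Hspa1b and Hspa1a, so its direction in part restates theirs. All 8 of its members lay above 0, against 50 of the 66 filtered members. Their median log2 ratio was 0.35, with values from 0.18 for Hsp90aa1 to 1.15 for Hsph1. Hspa8, also counted among the constitutive members, had a log2 ratio of 0.45, or 1.36-fold (1.34 to 1.39). Dnaja1 had a log2 ratio of 0.24, Dnajb1 0.21 and Hspb1 0.19, all short of 1.5-fold and close to those of the cortex and chromaffin markers. The list held 24.3% of member TPM in replicate 1 and 20.9% in replicate 2. Most of this was Hspa8, with 567 of the list's 820 TPM in replicate 1 and 446 of 670 in replicate 2.

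The medians of the remaining compartments were smaller, and none of their members passed 1.5-fold. Since 11.6% of all filtered genes passed it, lists of 8 to 12 genes would hold few such genes at that share, and little can be read from a count of 0 in these or the following lists. The 8 constitutive cytosolic members, Hspa8 among them, had a median log2 ratio of 0.14 with 7 above 0, the 8 mitochondrial members 0.16 with 6 above 0, and the 10 ER members 0.08 with 8 above 0. The count for the ER members was 6 of 10 when scaled by total counts or spike-ins. The ER pair Hspa5 and Hsp90b1 had log2 ratios of 0.24 and 0.20, and the mitochondrial Hspa9 had -0.07. The 4 members of neurons and secretory vesicles (Dnajc5, Dnajc6, Dnajc12, Dnajc13) ranged from -0.24 for Dnajc5 to 0.15 for Dnajc12.

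Other lists, chosen with earlier results of these data known, were measured beside the families. Their directions are therefore a description only. The 8 immediate early genes, transcription factors and signalling genes induced within minutes of a stimulus, were all above 0 with a median log2 ratio of 0.83, and 5 were over 1.5-fold higher in replicate 1. Egr1 had 19.2 TPM in replicate 1 against 6.88 in replicate 2 (2.96-fold by counts), Fos had 7.61 TPM in replicate 1 against 2.29 in replicate 2 (2.90-fold), and Junb had 21.3 TPM in replicate 1 against 10.2 in replicate 2 (2.23-fold). Fosb was 2.02-fold and Jun 1.56-fold higher in replicate 1. The list summed to 106 TPM in replicate 1 against 64.8 in replicate 2, and its part in the values of the inducible chaperones was not tested.

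Of the heat shock factors, which drive the inducible genes, Hsf1 and Hsf2 were closer between the libraries than the immediate early genes. Hsf1 had 20.6 TPM in replicate 1 against 20.9 in replicate 2, but by scaled counts it leaned to replicate 1, with a log2 ratio of 0.13. Hsf2 had 6.47 TPM in replicate 1 against 7.94 in replicate 2, and a log2 ratio of -0.18. Hsf4 and Hsf5 stayed at or below 0.15 TPM in both libraries.

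Of the 12 co-chaperones of HSP90 and HSP70, 1 passed 1.5-fold: Chordc1, an HSP90-binding protein, with 20.6 TPM in replicate 1 against 16.1 in replicate 2 (1.64-fold by counts). The 3 highest of that list were Stub1, a ubiquitin ligase that binds HSP70 and HSP90, with 73.2 TPM in replicate 1 against 75.4 in replicate 2, Fkbp4, a partner of steroid receptors on HSP90, with 74.9 TPM in replicate 1 against 67.2 in replicate 2, and Cdc37, which brings kinases to HSP90, with 63.8 TPM in replicate 1 against 61.6 in replicate 2. The median log2 ratio of the list was 0.14.

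None of the 11 nucleotide exchange factors passed 1.5-fold, and their highest members were Bag6, with 142 TPM in replicate 1 against 151 in replicate 2, Bag1, with 85.3 TPM in replicate 1 against 80.7 in replicate 2, and Hyou1, with 49.6 TPM in replicate 1 against 44.5 in replicate 2. None of the 12 ER stress targets passed it either, and the nearest were Creld2 at 1.47-fold and Sdf2l1 at 1.45-fold. In the alignment-free counts 1 of the 12 did pass it, higher in replicate 1. The highest were the lectin chaperones Calr and Canx and the secreted factor Manf. They had 177, 142 and 94.6 TPM in replicate 1 and 170, 157 and 97.2 TPM in replicate 2. The 8 subunits of TRiC, the cytosolic chaperonin for actin and tubulin, had a median log2 ratio of -0.02 with 2 above 0, or 0.01 with 5 above 0 in the alignment-free counts. Its highest subunits were Cct5, with 102 TPM in replicate 1 against 110 in replicate 2, Cct3, with 92.4 and 96.5 TPM, and Cct2, with 84.1 and 93.6 TPM, in the same order.

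**Figure D3:**
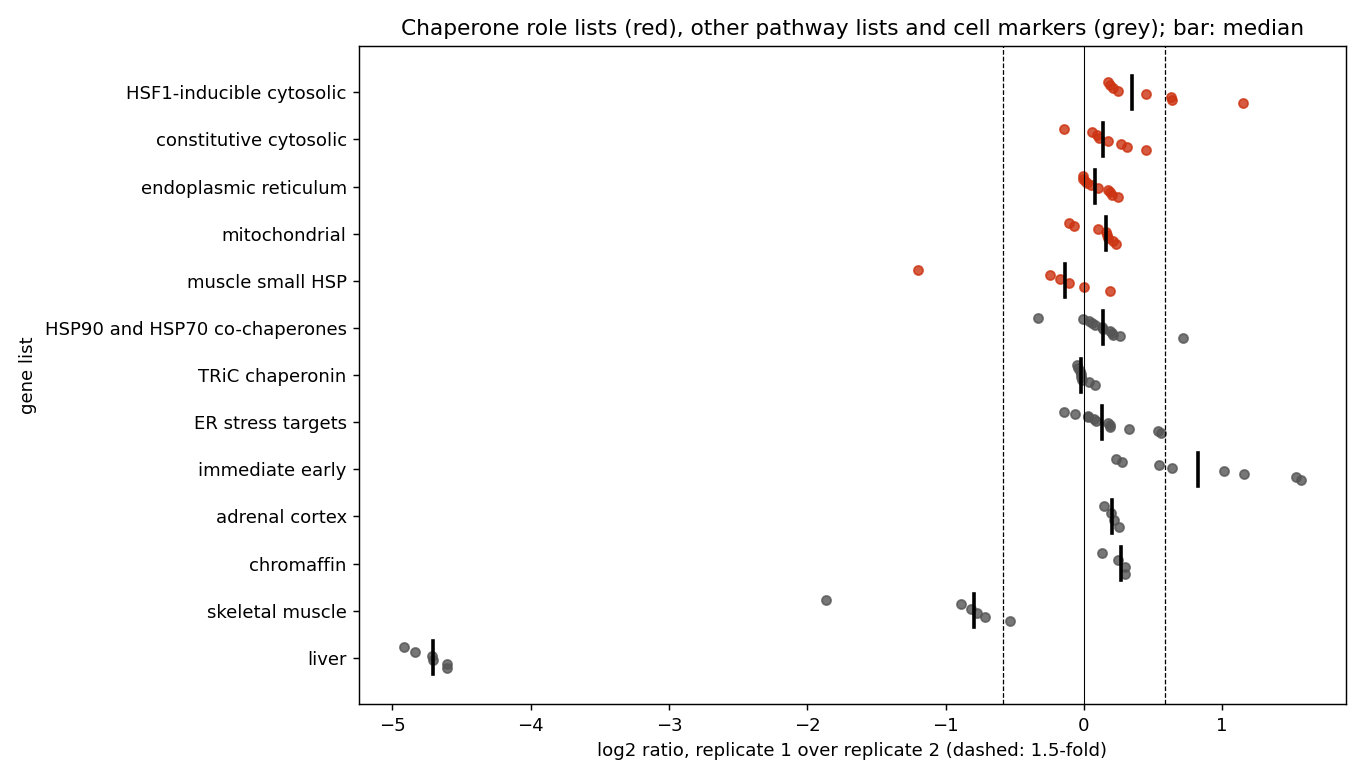
Log2 ratio of scaled counts, replicate 1 over replicate 2, for each filtered gene (points) of 5 chaperone role lists in red and 8 other lists in grey, with a bar at each list's median and dashed lines at 1.5-fold. The HSF1-inducible points all lie right of 0, with the immediate early genes further right, and the liver markers lie near -4.7.

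The 3 members higher in replicate 2 were of low abundance. Dnajc22 (chr15:99093170-99104737, plus strand), a membrane-spanning DnaJ protein, had 0.75 TPM in replicate 1 against 2.26 in replicate 2, from 32 counts in replicate 1 and 99 in replicate 2, and was 3.19-fold higher in replicate 2 (2.14 to 4.96). All 6 liver markers were also higher in replicate 2, by log2 ratios of -4.61 to -4.91, and their part in the Dnajc22 value was not tested.

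Hspb2, a muscle small HSP (chr9:50751078-50752354, minus strand), had 1.04 TPM in replicate 1 against 2.68 in replicate 2, from 21 counts in replicate 1 and 47 in replicate 2, and was 2.30-fold higher in replicate 2 (1.37 to 4.11). It overlaps Cryab, another small HSP gene not covered by the symbol rule, by 1030 bases on the opposite strand, and Cryab had 19.2 TPM in replicate 1 against 29.8 in replicate 2. All 6 skeletal muscle markers were higher in replicate 2, 5 of them past 1.5-fold, with a median log2 ratio of -0.79, and their part was not tested. The other muscle small HSPs lay closer to 0: Hspb7 had a log2 ratio of -0.25, Hspb3 -0.17, Hspb6 -0.10, Hspb8 0.00 and Hspb1 0.19.

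Hspa1l, an HSP70 gene of the testis that begins 547 bases from Hspa1a on the other strand, had 0.28 TPM in replicate 1 against 0.46 in replicate 2, from 22 counts in replicate 1 and 33 in replicate 2. Its log2 ratio of -0.63 had a counting interval from -1.49 to 0.18, which includes 0, so at this depth a difference was not resolved. It did not pass 1.5-fold in the alignment-free counts. Of the 50-base stretches of its main transcript, 9.57% also occur in Hspa1a.

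The transcripts behind the gene levels were given by both the alignment-based and the alignment-free transcript table. Of the 64 members at 1 TPM or more, 50 had the same main transcript, the one with the highest mean TPM over the libraries, in both. Among those that differed, Hspa8 was the most abundant: Hspa8-202 held 45.0% of its TPM in replicate 1 and 43.3% in replicate 2 in the alignment-based table, but 0.24% in replicate 1 and 0.14% in replicate 2 in the alignment-free table. There Hspa8-201 held 78.5% in replicate 1 and 78.9% in replicate 2. Of the 50-base stretches of Hspa8-201, 73.2% occur in other annotated genes.

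For 12 further members at 5 TPM or more the main transcript differed. In Dnaja1, Dnaja1-206 led the alignment-based table with 32.7% of TPM in replicate 1 and 36.7% in replicate 2 and was at 0 in the alignment-free table. In Dnajc19, Dnajc19-205 led with 50.4% in replicate 1 and 51.8% in replicate 2 and was likewise at 0. In Hspa4 and Dnaja2 both tables split the gene between a coding transcript and a short retained intron: Hspa4-202 held 27.3% in replicate 1 and 25.5% in replicate 2 by alignment and 48.1% in replicate 1 and 47.0% in replicate 2 without, and Dnaja2-202 held 45.5% in replicate 1 and 37.7% in replicate 2 by alignment and 56.6% in replicate 1 and 50.04% in replicate 2 without. The others were Dnajc7, Dnajc11, Dnajc13, Dnajb2, Dnajb4, Dnajc24, Hsph1 and Dnajc25.

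For Hsph1 the coding Hsph1-211 led by alignment, with 53.6% of TPM in replicate 1 and 40.8% in replicate 2, and the retained intron Hsph1-208 had the highest mean in the alignment-free table, with 24.9% in replicate 1 and 17.8% in replicate 2. In replicate 2 of that table the coding Hsph1-201 was higher, at 21.4%, and Hsph1-211 stood at 17.9%. Several highly expressed members showed no such spread. Hspd1-201 held over 99% of the Hspd1 TPM in both tables and both libraries, Hspe1-201 held at least 97.85%, and Hspa9-201 at least 94.38%. Hsp90ab1-201 held 91.9% in replicate 1 and 90.5% in replicate 2 by alignment and 89.4% in replicate 1 and 85.4% in replicate 2 without.

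The share of a member's TPM on transcripts without the protein_coding label had a median of 7.92% over the 64 members in the alignment-free table, against 13.4% over 13305 protein-coding genes at 1 TPM or more. A mean share over 50% was found in the alignment-free table for 6 members (9.38%), against 11.7% of the protein-coding genes. These were Dnajc15, Hspa4, Dnaja2, Dnajc11, Hspb6 and Dnajc9, a histone chaperone. Dnajc11, Hspb6 and Dnajc9 were below 50% in replicate 1, at 47.8%, 42.1% and 46.6%. In the alignment-based table the count was 3 of 64 members and 1269 of 13305 protein-coding genes. These members were Dnajc15, Dnajc7 and Dnajc19, so Dnajc15 alone was in both sets.

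Dnajc15 was set apart, with 97.1% in replicate 1 and 96.9% in replicate 2, and 94.4% in replicate 1 and 94.0% in replicate 2 in the alignment-based table. Its processed transcript Dnajc15-203, 419 bases long, held 57.9% of the alignment-free TPM in replicate 1 and 57.7% in replicate 2. Dnajc15-201, 674 bases long and labelled as nonsense-mediated decay, held 39.2% in replicate 1 and 39.1% in replicate 2. Its coding transcript Dnajc15-202 is 6193 bases long and had 12.3 TPM in replicate 1 against 11.6 in replicate 2 in that table. The gene level of Dnajc15 therefore rested mostly on short transcripts, whose TPM depends on the effective length used.

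**Figure D4:**
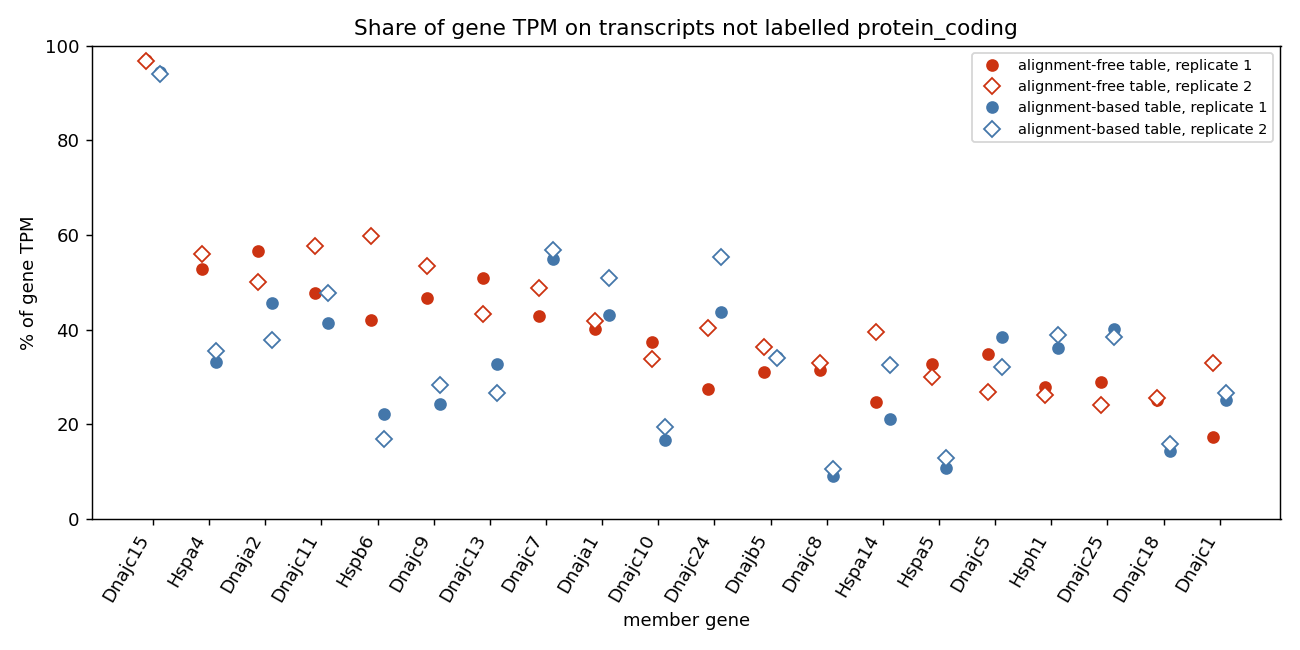
Percent of gene TPM on transcripts not labelled protein_coding for the 20 members with the highest such share among those at 1 TPM or more, in replicate 1 (filled circles) and replicate 2 (open diamonds), from the alignment-free table (red) and the alignment-based table (blue). Dnajc15 lies above 94% in all 4 measurements, and for members such as Hspb6 and Dnajc9 the tables lie further apart than the libraries.

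Alignment-free gene sums of TPM were a median of 1.99 times the gene-table TPM for members and 1.86 times for protein-coding genes at 1 TPM or more. The members furthest above were Dnajc11 (3.25 times), Dnajc8 (2.93), Dnajc15 (2.83), Dnajc16 (2.80) and Dnajc18 (2.58). Those with the lowest values were Dnajc30 (1.55 times), Hspa8 (1.57), Hspa1a (1.59), Dnajb5 (1.61) and Hspa9 (1.62).

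Shared sequence marks where reads can move between genes. Main transcripts here are those of the alignment-free table. For Dnaja1 this was Dnaja1-205, 916 bases long, with 33.2% of TPM in replicate 1 and 31.3% in replicate 2. Of the 50-base stretches of a member's main transcript, 83.2% were found in other genes for Dnaja1, 65.6% for Hsp90aa1, 60.3% for Hspa1a and 58.9% for Hspb1. The share was 44.8% for Hspd1, 41.9% for Dnajb6 and 36.1% for Hspe1, against 4.49% for Hsp90ab1 and 4.10% for Hspa9. The partners include processed pseudogenes such as Hspd1-ps3 and Hsp25-ps1. The estimated uncertainty of the gene counts deposited by the authors, a posterior SD, was 3.64% of the Hspa1a count in replicate 1 and 4.50% in replicate 2, and 1.79% of the Hspa1b count in replicate 1 and 2.23% in replicate 2. For Dnaja1 and Hspa8 it stayed below 1% in both libraries.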

How the data were processed

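Total RNA, 300 ng per library with ERCC spike-ins, was made into directional libraries per the labels' protocols. The authors deposited, per library on mm10 with GENCODE M21, a gene and a transcript table of expected counts, TPM and posterior SD (another unit of the same headers) from alignments, and an alignment-free transcript table of estimated counts and TPM, per the file headers. The programs and their settings: not given in the sources used here. TPM weighs short transcripts heavily and depends on the effective length.

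Here expected counts were rounded, filtered with filterByExpr and scaled by TMM (edgeR 4.0.16, R 4.3.3), leaving 18160 genes. Ratios are replicate 1 over replicate 2 with a prior count of 0.5, and intervals are exact Clopper-Pearson at 95%. Alternatives used DESeq2 1.42.0 size factors, total or spike-in counts, no filter, alignment-free counts, a prior of 2, and detection at 0.5 or 5 TPM. Other steps used Python 3.11.15 (pandas 2.3.3, scipy 1.17.1). The ratio method was tested on simulated data with counting error only and with changes placed in genes of high counts. Variation between animals and changes in genes of low counts were not covered. Members, role lists, the other lists and markers were chosen with earlier results of these data known, although the symbol rule itself reads no measured value. All members could be named; values went to the families of HSP genes, the highest DNAJ genes, role lists, members past 1.5-fold and those whose tables differed.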

Additional observations from a re-analysis of the deposited data

How the results depend on the processing

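With 1 group of 2 libraries, no value here has a test, and intervals cover counting error only. The number of members past 1.5-fold was 6, and 10 without the filter on low counts, where 4 members of at most 4 counts per library are added, and it was 3 at a 2-fold limit. With alignment-free counts it was 4, and the cause was not tested. The median member level of 13.4 TPM was 26.3 TPM in the alignment-free table and 35.3 TPM when TPM was rescaled to protein-coding genes, and 13.2 to 14.1 TPM leaving out either library. The median share of TPM on transcripts without the protein_coding label, 7.92%, was 8.88% in the alignment-based table, 10.3% for members at 5 TPM or more, and 7.59 to 8.15% leaving out either library. The median log2 ratio of members ranged from 0.07 to 0.12 under the alternatives, and between 63 and 65 members were detected, or 56 at 5 TPM. The same main transcript was found for 50 or 51 of 64 members. Scaling moved the median of all filtered genes by at most 0.03 on the log2 scale. No paired analysis was possible because the series has 1 group.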

Other observations

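Of the 14 processed pseudogenes with matching symbols, Hspd1-ps3 had the highest level, with 4.22 TPM in replicate 1 against 4.56 in replicate 2 from 226.75 and 220.98 expected counts in that order. Its alignment-free TPM was 1.07 in replicate 1 and 0.655 in replicate 2. Dnajc19-ps had 0.47 TPM in replicate 1 against 0.54 in replicate 2 in the gene table and 0 in the alignment-free table. Hspa9-ps1 had 0.13 TPM in replicate 1 against 0.15 in replicate 2 in the gene table, and 2.21 and 2.99 TPM in the alignment-free table in that order. The parent gene Hspd1 was far higher, with 274 TPM in replicate 1 against 260 in replicate 2.

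Gm20503, a gene annotated as protein-coding that overlaps Dnajc25 on the same strand over 22364 bases, had 2.28 TPM in replicate 1 against 0.38 in replicate 2, a log2 ratio of 2.58, while Dnajc25 had 5.97 TPM in replicate 1 against 7.40 in replicate 2, a log2 ratio of -0.13. How reads were divided between these overlapping genes was not tested.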
